A study of Mus musculus with 45 samples.

Results

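The mRNAs of 10 factors that remove the cap or the poly(A) tail of messages, or digest them from the 5′ end, were examined in primary cells of the embryonic mouse cortex. Dcp2, Dcp1a, Edc3, Edc4, Ddx6, Patl1, Lsm14a, Xrn1, Pan2 and Pan3 were chosen by name, and all 10 were found among the 53491 genes of each table. The cells were wild type and came from cortex of E11.5, of E14.5 or of E16.5 embryos, with 3 biological replicates (A, B and C) per stage. A replicate was a pool of 7 embryos at E11.5 or of 2 embryos at the later stages, and its cells were split over 5 wells. All wells received 100 uM 4-thiouridine (4sU) for 20 h, a uridine analogue that cells build into new RNA, followed by 5 mM uridine, and RNA was taken after 0, 2, 4, 8 or 12 h of this chase. In SLAM-seq the analogue is alkylated and then read as C in place of T, so that the conversion rate, the percentage of covered T positions read as C, follows the labelled RNA. The 45 libraries fall into 15 groups of 3. Every sample is therefore dissociated cortex held in progenitor medium for about a day, and no untouched tissue was included.

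Decay of a message usually starts with the shortening of its poly(A) tail. PAN2 is a nuclease that trims the tail, and PAN3 is the partner that binds it and brings it to RNA. After deadenylation, DCP2 cuts off the cap with the help of DCP1A, EDC3 and the scaffold EDC4, and XRN1 then digests the body from the 5′ end. DDX6 is an RNA helicase of P-bodies that joins repression of translation to decapping, PATL1 bridges deadenylation and decapping, and LSM14A binds DDX6 and is needed for P-body assembly.

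Sites in the 3′ untranslated regions (UTRs) show how the messages themselves may be read by RNA-binding proteins. The letters TATTTAT, an AU-rich heptamer found in many unstable messages, and TGTANATA, the element bound by Pumilio proteins, were searched on the transcript strand of the longest coding isoform, and the motifs do not overlap each other in the sites shown. The matches of Dcp1a, whose mRNA had the shortest half-life of the 10, are shown with those of Edc3, Ddx6, Patl1, Lsm14a and Pan3, with the motif in capitals. Sequences and positions are from GRCm38 with the GENCODE vM21 annotation.
Dcp1a, AU-rich heptamer, chr14:30524321-30524343, plus strand: atggtttcTATTTATgcttttat
Dcp1a, Pumilio element, chr14:30524875-30524898, plus strand: tgatagtgTGTAAATAtagcaacc
Dcp1a, Pumilio element, chr14:30525249-30525272, plus strand: ttcctcagTGTAGATAcaaacttc
Edc3, AU-rich heptamer, chr9:57750556-57750578, plus strand: ttctagctTATTTATtggcttgc
Edc3, Pumilio element, chr9:57750218-57750241, plus strand: actgggtaTGTACATAgagacatg
Ddx6, Pumilio element, chr9:44637156-44637179, plus strand: atccacacTGTACATAcatgtatt
Ddx6, Pumilio element, chr9:44637437-44637460, plus strand: ataaacttTGTAAATAagtttttt
Patl1, Pumilio element, chr19:11944933-11944956, plus strand: tagggtatTGTAAATAaaacaaat
Lsm14a, Pumilio element, chr7:34344989-34345012, minus strand: tgtatgaaTGTAAATAatcataga
Pan3, AU-rich heptamer, chr5:147547933-147547955, plus strand: ttgttttaTATTTATttttcatt

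Such matches are common in long UTRs. The Dcp1a 3′ UTR is 3757 bases long, and of 925 UTRs within 20% of that length 60.3% held the AU-rich heptamer and 53.8% the Pumilio element, while 21.4% had at least as many Pumilio elements as Dcp1a. The share with a Pumilio element was 54.4% for UTRs of the length of Edc3, 54.6% for Ddx6, 33.0% for Patl1 and 28.9% for Lsm14a. The AU-rich heptamer was present in 61.4% of UTRs like that of Edc3 and in 49.7% of those like that of Pan3. No match was found in the searched UTRs of Edc4 (363 bases), Xrn1 (218 bases) and Pan2 (588 bases), and these are the shortest of the 10. Other isoforms were not searched. The searched transcript covers 5499 bases of an exon union of 18585 bases for Xrn1, and 4445 of 8472 bases for Pan2. The Dcp2 3′ UTR, at 7240 bases, was longer than 98.6% of the 8799 transcripts with a half-life and annotation, and it held 2 heptamers and 1 Pumilio element.

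The genes lie on 8 chromosomes and all are annotated as protein-coding. Reads were summed over exons, and 4 of the 10 share exonic bases with another gene. The largest shared part was 22.1% of the exonic bases of Edc3 (chr9:57708540-57752499), which overlap Clk3 on the opposite strand. Edc4 (chr8:105880881-105894908) shares 8.33% with Nrn1l on the same strand. Lsm14a (chr7:34344646-34393315) shares 7.40% and Xrn1 (chr9:95954760-96057803) 4.24% with genes of the opposite strand. The library kit keeps strand, but whether strand was used in counting is not given in the sources used here, so the values of these 4 genes may include reads of their neighbours. The remaining genes are Dcp2 (chr18:44380502-44424969), Dcp1a (chr14:30479535-30527063), Ddx6 (chr9:44604892-44640731), Patl1 (chr19:11912399-11945091), Pan2 (chr10:128303335-128321358) and Pan3 (chr5:147430161-147548502), with no shared exonic base.

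Libraries held 15.9 to 43.9 M recovered reads, or 229 to 629 M covered T positions. Summed over 6 genes each, progenitor markers (Sox2, Pax6 and others) fell from 8024 to 8523 reads per 1e6 reads (cpm) at E11.5 to 1159 to 1279 cpm at E16.5, and neuron markers (Dcx, Tubb3 and others) went from 2713 to 3256 cpm to 7844 to 8169 cpm. The 8 erythroid markers summed to 1759 to 3850 cpm at E11.5 and to at most 208 cpm later, and the 5 meningeal markers to 427 to 659 cpm at E11.5 and to at most 25.9 cpm later. The 3 markers of intermediate progenitors fell from 172 to 180 cpm at E11.5 to 69.6 to 82.5 cpm in E16.5 cells. Endothelial and microglial markers, 5 each, stayed at or below 13.2 cpm, and no marker of any list was at 0 in all libraries of a stage. These shifts run with every stage comparison below, and their part in the results was not tested. In bulk samples fewer cells of a type and less RNA per cell cannot be told apart.

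Between E11.5 and E16.5 the factors moved in different directions at 0 h of chase. The mRNAs of the decapping enzyme, of DCP1A, of PATL1, of LSM14A and of PAN2 fell, and those of EDC3, EDC4, DDX6 and PAN3 rose, while Xrn1 was at the same level at both ends and higher between them. Expression at 0 h was compared on covered T counts with edgeR's quasi-likelihood test, with Benjamini-Hochberg adjustment over 18408 genes and an adjusted p under 0.05. From E11.5 to E16.5, 4 of the 10 rose and 5 fell, against 31.4% of all tested genes that rose and 33.1% that fell. The median size of the log2 change was 0.36 for the 10 and 0.60 for all genes, and the largest among the 10 was that of Lsm14a, at 0.72, so that none reached a 2-fold change. From E11.5 to E14.5, 2 rose (25.1% of all genes) and 3 fell (23.5%), and from E14.5 to E16.5, 2 rose (24.1%) and 6 fell (25.4%). Some of these counts rest on single libraries: without E11.5 replicate B or E14.5 replicate C, 1 rose in the first interval. The number that fell there was 2 without E11.5 replicate A and 4 without E11.5 replicate B. In the second interval, 3 fell without E16.5 replicate A or C, and 1 rose without E14.5 replicate A or B or E16.5 replicate B.

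**Figure D1:**
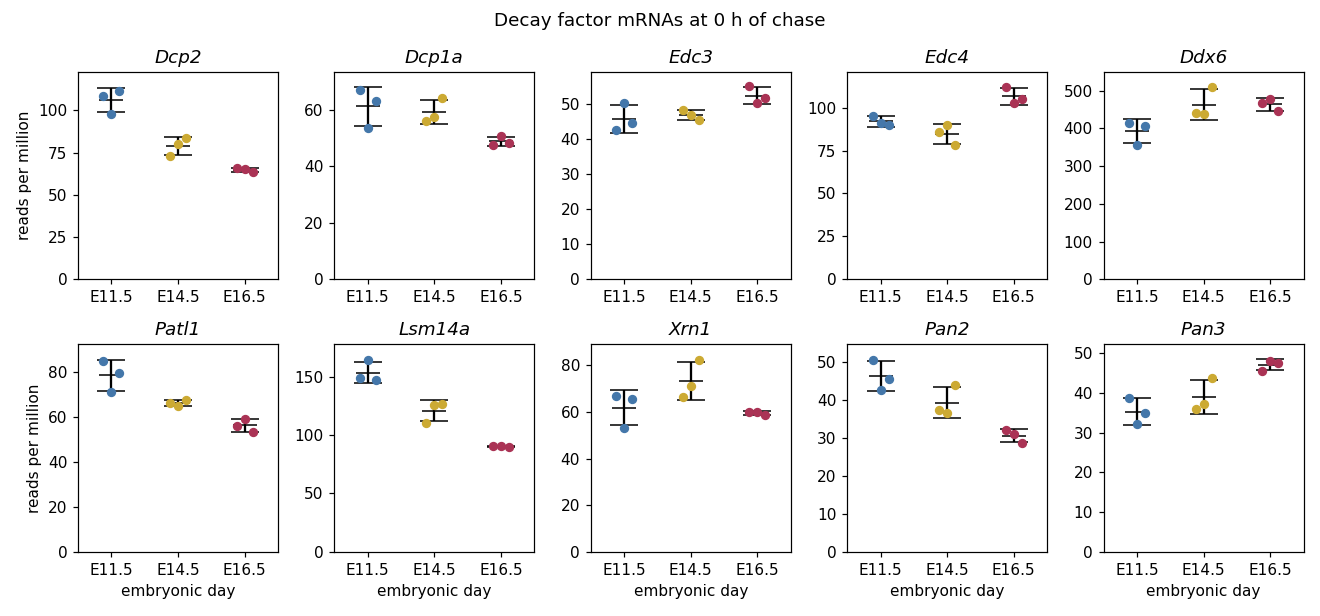
Reads per 1e6 reads (cpm, y axis from 0) of the 10 mRNAs at 0 h of chase at the 3 stages. Points are the 3 replicates and bars the mean and SD; Dcp2 falls from 98.1 to 112 cpm at E11.5 to 63.2 to 65.8 cpm at E16.5, and Pan3 rises from 32.2 to 38.8 cpm to 45.5 to 48.0 cpm.

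Dcp2 encodes the enzyme that hydrolyses the cap. Its level at 0 h was 109, 98.1 and 112 cpm in replicates A, B and C at E11.5, 72.9, 79.9 and 83.6 cpm in E14.5 cells, and 65.8, 65.0 and 63.2 cpm in E16.5 cells. The 3 stages did not overlap. The log2 change was -0.39 ± 0.07 (SE, adjusted p = 0.000588, edgeR) in the first interval and -0.25 ± 0.07 (adjusted p = 0.0121) in the second, and -0.64 ± 0.07 over both (adjusted p = 4.58e-06). In the 12 h wells of the same pools the second change was -0.09 and did not pass (adjusted p = 0.188), and the total was -0.40 (adjusted p = 1.51e-05).

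The cofactors of DCP2 did not follow it as a group. Dcp1a, the activator that binds DCP2 directly, was at 67.1, 53.6 and 63.0 cpm in E11.5 cells, 55.8, 57.5 and 64.1 cpm in E14.5 cells, and 47.6, 50.5 and 48.2 cpm in E16.5 cells. Only the E16.5 replicates stood below all others, with a log2 change of -0.26 ± 0.09 from E11.5 (adjusted p = 0.0203, edgeR), which did not pass without E11.5 replicate A (adjusted p = 0.0971) or C (0.0517) or E16.5 replicate A (0.0826) or C (0.0693). Edc3, an enhancer of decapping that can link decapping complexes, was at 42.5, 50.3 and 44.6 cpm in E11.5 cells, 48.3, 46.9 and 45.5 cpm in E14.5 cells, and 55.2, 50.3 and 51.9 cpm in E16.5 cells. The rise of Edc3 passed only from E11.5 to E16.5 (0.27 ± 0.08 on the log2 scale, adjusted p = 0.00704), with the closest replicates of those stages 50.25 and 50.29 cpm, and it was 0.16 in the 12 h wells (adjusted p = 0.0839). Edc4, the scaffold of the complex, was at 95.4, 90.8 and 89.7 cpm in E11.5 cells, 85.7, 89.7 and 78.4 cpm in E14.5 cells, and 112, 103 and 105 cpm in E16.5 cells. Its rise came in the second interval (0.36 ± 0.07, adjusted p = 0.00088), where no replicates overlapped, and was 0.16 in the 12 h wells (adjusted p = 0.0186). The ratio of Edc4 to Dcp2 reads, chosen after the values were seen and given without a test, was 0.869 ± 0.062 (SD, n = 3) at E11.5, then 1.08 ± 0.12, and 1.65 ± 0.07 in the oldest cells.

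The activators that act with P-bodies split in the same way. Ddx6, the helicase, was at 414, 357 and 408 cpm in E11.5 cells, 442, 437 and 511 cpm in E14.5 cells, and 468, 479 and 446 cpm in E16.5 cells. It rose in the first interval by 0.26 ± 0.07 on the log2 scale (adjusted p = 0.00942, edgeR), and its E14.5 and E16.5 replicates overlapped. Lsm14a was at 149, 164 and 147 cpm in E11.5 cells, 111, 126 and 126 cpm in E14.5 cells, and 90.7, 90.4 and 90.0 cpm in E16.5 cells. The stages did not overlap, and the total log2 change was -0.72 ± 0.07 (adjusted p = 1.05e-06). Patl1 was at 85.0, 71.4 and 79.8 cpm in E11.5 cells, 66.2, 65.0 and 67.7 cpm in E14.5 cells, and 56.3, 59.1 and 53.6 cpm in E16.5 cells. Its replicates were also apart at each step, with a total log2 change of -0.43 ± 0.07 (adjusted p = 0.000176), but the first step (-0.19 ± 0.07, adjusted p = 0.0475) passed in only 1 of the 9 fits that left out a replicate, with adjusted p-values of 0.0557 to 0.183 in the other 8. It did not pass without a filter on low counts (0.142) or with the replicate as a block (0.0686). The second step did not pass without E16.5 replicate A (0.0824) or C (0.0737).

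Xrn1, the 5′ to 3′ exonuclease, was at 66.7, 53.0 and 65.3 cpm in E11.5 cells, 66.4, 71.2 and 82.4 cpm in E14.5 cells, and 59.9, 60.03 and 58.7 cpm in E16.5 cells. The E14.5 replicates were the higher ones, although the lowest of them lay within the E11.5 range. The log2 change was 0.27 ± 0.09 in the first interval (adjusted p = 0.0193, edgeR) and -0.27 ± 0.09 in the second (adjusted p = 0.0205), and 0.00 ± 0.09 over both. Without E11.5 replicate B the first rise had an adjusted p of 0.0638, and without E14.5 replicate C the adjusted p was 0.0796 for the rise and 0.0846 for the fall. The fall did not pass without E16.5 replicate A (0.0837) or C (0.0568) either. In the 12 h wells of the same pools the first change was -0.07 (adjusted p = 0.277), the second -0.15 (adjusted p = 0.0362) and that over both -0.22 (adjusted p = 0.00262).

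The 2 subunits of the PAN2-PAN3 deadenylase moved in opposite directions. Pan2, the catalytic subunit, was at 50.5, 42.8 and 45.6 cpm in E11.5 cells, 37.4, 36.5 and 44.0 cpm in E14.5 cells, and 32.0, 31.1 and 28.6 cpm in E16.5 cells. Pan3, the RNA-binding partner, was at 38.8, 32.2 and 34.9 cpm in E11.5 cells, 36.0, 37.1 and 43.8 cpm in E14.5 cells, and 45.5, 48.0 and 47.6 cpm in E16.5 cells. For both genes the E16.5 replicates lay apart from all earlier ones. From E11.5 to E16.5 Pan2 fell by 0.54 on the log2 scale (SE 0.09, adjusted p = 0.000195, edgeR) and Pan3 rose by 0.48 (SE 0.08, adjusted p = 0.00025). The ratio of Pan3 to Pan2 reads, again chosen after the values were seen, was 0.762 ± 0.008 (SD, n = 3) at E11.5, then 0.993 ± 0.027, and 1.54 ± 0.12 in the oldest cells. In the 12 h wells of the same pools it was 0.900 ± 0.019, 1.14 ± 0.11 and 1.204 ± 0.126, and there the Pan3 change from E11.5 to E16.5 was 0.05 (adjusted p = 0.662).

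**Figure D2:**
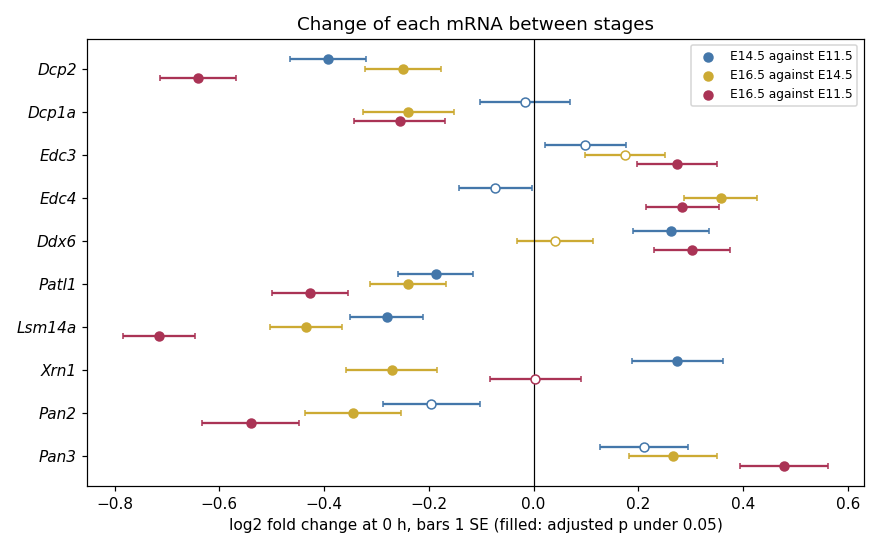
Log2 fold change of each mRNA at 0 h of chase (x axis, bars 1 SE of the edgeR fit) for E14.5 against E11.5, E16.5 against E14.5 and E16.5 against E11.5, with filled points for an adjusted p under 0.05. Lsm14a lies furthest below 0, at -0.72, Pan3 furthest above, at 0.48, and Xrn1 changes sign between the intervals.

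Levels of different genes were compared per kilobase of exon union. At E11.5 the order was Ddx6 (48.9 ± 3.9 cpm per kb, SD, n = 3), Lsm14a (25.02 ± 1.48), Patl1 (18.4 ± 1.6), Edc4 (16.7 ± 0.5), Dcp2 (12.2 ± 0.8), Edc3 (7.89 ± 0.69), Dcp1a (7.44 ± 0.84), Pan2 (5.46 ± 0.46), Xrn1 (3.32 ± 0.40) and Pan3 (2.36 ± 0.22). Patl1 and Edc4 overlapped in this order, as did Edc3 and Dcp1a. At E16.5 Edc4 (19.4 ± 0.9 cpm per kb) stood above Lsm14a (14.7 ± 0.1), Edc3 (9.04 ± 0.43) above Dcp2 (7.43 ± 0.15), and Xrn1 (3.20 ± 0.04) and Pan3 (3.15 ± 0.09) overlapped. The exon union of Xrn1 is 18585 bases, against a longest coding transcript of 5499 bases, so its level per kb depends on which isoforms the cells use.

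Of the other genes of these pathways, few changed strongly. Among 21 genes listed as decapping and 5′ to 3′ decay partners, 3 rose (31.4% of all genes) and 9 fell (33.1%) from E11.5 to E16.5. Their median log2 change was -0.18 against -0.04 over all genes. The list also holds genes linked to the poly(A) tail, such as Parn, Pabpc1 and Tob1. Of the 21 genes, 2 passed 2-fold. Nudt16, a nuclear decapping enzyme, went from 3.52 ± 0.58 to 7.90 ± 0.08 cpm (log2 change 1.25, adjusted p = 5.61e-06, edgeR), and Tob1, which recruits deadenylases, from 77.7 ± 5.7 to 34.6 ± 1.3 cpm (-1.13, adjusted p = 7.39e-07).

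Among the 11 subunits of CCR4-NOT, the main cytoplasmic deadenylase, 2 rose and 5 fell, beside the same 31.4% and 33.1% of all genes, with a median log2 change of 0.00. Cnot8 (0.26, adjusted p = 0.00285, edgeR) and Cnot4 (0.25, adjusted p = 0.0123) were those that rose, and Cnot9 (-0.58, adjusted p = 8.87e-07) and the scaffold Cnot1 (-0.35, adjusted p = 0.0064) had the largest falls. Of 15 genes listed with the exosome and its SKI helper, for decay from the 3′ end, 0 rose (31.4% of all genes) and 7 fell (33.1%). Their median was -0.23. Wdr61 (-0.80, adjusted p = 1.66e-06) and Exosc5 (-0.70, adjusted p = 0.00153) had the largest falls there.

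The half-lives of the same mRNAs were then taken from the loss of conversions over the chase. A single exponential was fitted to the 5 rates of each replicate, scaled to the rate at 0 h, and all 10 passed the filters in all 9 replicates. Most of the decay factors had messages less stable than the typical one. Below the stage median of all transcripts, which was 4.43, 4.60 and 3.48 h from the youngest stage to the oldest, lay 8, 9 and 8 of the 10. The median of the 10 was 3.63, 3.87 and 2.66 h. Edc4 was close to the stage medians and Pan2 was above them at each stage.

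Dcp1a had the shortest-lived message at all stages, with 1.98, 2.02 and 1.90 h in E11.5 cells, 1.93, 2.59 and 2.43 h in E14.5 cells, and 1.69, 1.61 and 1.73 h in E16.5 cells. Its mean was shorter than that of all but 0.884%, 2.83% and 2.95% of transcripts at the 3 stages. Pan2 had the longest-lived one, with 7.68, 7.20 and 5.14 h in E11.5 cells, 6.44, 5.98 and 6.32 h in E14.5 cells, and 5.00, 5.14 and 3.71 h in E16.5 cells. Dcp1a and Pan2 did not overlap at any stage. Pan3, the partner of Pan2, was shorter-lived at each stage, with 4.19, 4.39 and 4.11 h, then 4.12, 3.50 and 3.96 h, and 2.20, 2.41 and 2.96 h.

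Between them lay the other members of the decapping complex. Dcp2 was at 3.70, 3.88 and 2.83 h in E11.5 cells, 2.996, 3.30 and 3.01 h in E14.5 cells, and 2.55, 2.86 and 2.99 h in E16.5 cells. Edc3 was at 2.86, 2.55 and 2.73 h, then 2.78, 3.08 and 3.53 h, and 1.79, 2.05 and 2.09 h. Edc4 was at 4.53, 5.03 and 4.199 h, then 4.40, 4.84 and 4.17 h, and 3.66, 3.65 and 3.84 h. Among the cofactors the E16.5 values were the lowest, and at each stage the replicates of Edc3 lay below those of Edc4.

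As fitted, the activators and the exonuclease also had their shortest means at E16.5. Ddx6 was at 3.21, 3.71 and 3.14 h in E11.5 cells, 3.79, 3.80 and 4.05 h in E14.5 cells, and 2.91, 2.90 and 2.94 h in E16.5 cells. Patl1 was at 3.60, 5.04 and 4.16 h, then 3.11, 2.85 and 3.87 h, and 2.23, 2.05 and 2.49 h. Lsm14a was at 4.19, 3.51 and 3.30 h, then 3.87, 3.84 and 4.17 h, and 2.27, 2.56 and 2.42 h. For these genes the E16.5 replicates were apart from the earlier ones. Xrn1 was at 3.23, 4.08 and 3.49 h, then 3.78, 4.39 and 3.83 h, and 2.98, 2.67 and 3.13 h, with overlapping replicates at the earlier stages.

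**Figure D3:**
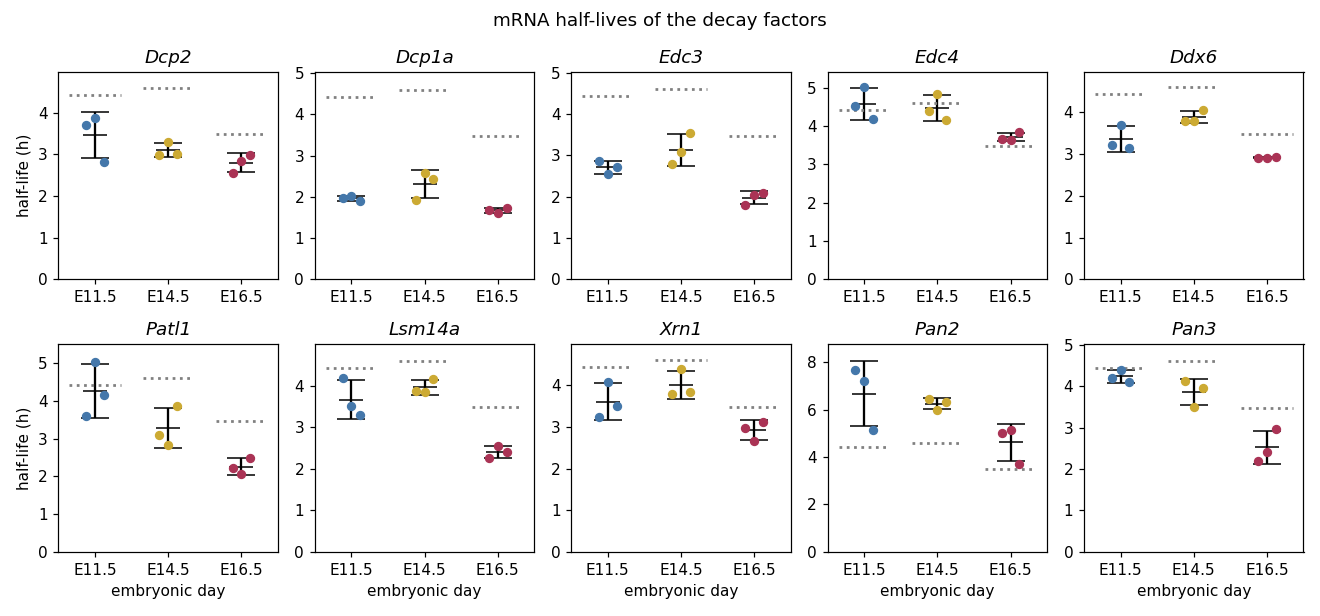
Half-life in hours (y axis from 0) of each mRNA at the 3 stages, with points for the replicates, bars for the mean and SD, and a dotted line at the median of all transcripts measured at that stage (4.43, 4.60 and 3.48 h). Dcp1a lies below the dotted lines throughout and Pan2 above them.

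In hours, all E16.5 replicates were below all E14.5 replicates for 10 of the 10, and below all E11.5 replicates for 9 of the 10, with Dcp2 the exception. The same held for 69.5% and 51.5% of the 9505 transcripts measured at all stages. These hours depend on conversions that are not label. No unlabelled cells were analysed here, and the background was estimated from the transcripts with the lowest rates at 12 h (the 5th percentile), at 0.140%, with 0.115 to 0.158% among the 9 replicates. The 0 h rate over all genes was 1.18% at E11.5 and 1.10% at E14.5 but 1.86% at E16.5, so the same background is a larger part of the signal at the earlier stages.

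With this background subtracted from every rate, the medians of all transcripts were 3.43, 3.58 and 2.96 h and those of the 10 were 2.81, 2.97 and 2.23 h. All E16.5 replicates were then below all E14.5 replicates for 7 of the 10 (53.1% of 9567 transcripts) and below all E11.5 replicates for 5 (36.8%), namely Edc3, Edc4, Patl1, Lsm14a and Pan3. Ddx6 was then at 2.51 ± 0.16 h (SD, n = 3) in E11.5 cells and 2.49 ± 0.02 h in E16.5 cells, and Dcp1a at 1.36 ± 0.08 h and 1.36 ± 0.04 h. Patl1 went from 3.26 ± 0.52 h to 1.87 ± 0.19 h. The number of the 10 below the stage median stayed at 8, 9 and 8.

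To compare a transcript with the others of its stage, half-lives were expressed as z-scores within each replicate (SDs from the mean of all transcripts) and tested with limma. None of the 10 passed an adjusted p of 0.05 for any difference among stages, where 3.15% of transcripts did. None passed from E11.5 to E14.5 (0.2% of transcripts), from E14.5 to E16.5 (0.884%) or from E11.5 to E16.5 (4.7%). An unadjusted p under 0.05 was reached by 2 of the 10 for any difference (Patl1 and Pan3), and by 1, 2 and 2 for these pairs. The share of all transcripts at this unadjusted cutoff is not given here, so these counts are not a result about the 10.

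Against the other pathway genes the 10 were again mixed. At E16.5 the median half-life was 2.66 h for the 10, 2.81 h for the 11 CCR4-NOT subunits, 3.64 h for the 15 exosome and SKI genes and 4.58 h for 19 measured decapping and 5′ to 3′ partners. The extremes of these lists were Cnot6l (1.77 ± 0.11 h, SD, n = 3) and Cnot10 (5.26 ± 0.64 h), Exosc3 (1.97 ± 0.49 h) and Skiv2l (8.03 ± 0.94 h), and Tob1 (1.38 ± 0.10 h) and Lsm4 (9.88 ± 2.19 h). At E11.5 the median was 3.63 h for the 10 and 3.64 h for CCR4-NOT. At E14.5 it was 3.87 h for the 10 and 3.70 h for CCR4-NOT, so the order of these lists was not the same at each stage. No test was made between the lists.

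The lowest adjusted p was that of Patl1, from 4.27 ± 0.73 h (SD, n = 3) at E11.5 to 2.26 ± 0.22 h in E16.5 cells. Its z-score changed by -0.65 ± 0.18 (SE, adjusted p = 0.0831, limma), and it passed with R2 over 0.8 (adjusted p = 0.0452), with log2 half-lives centred on the median (adjusted p = 0.0495) and without E11.5 replicate A (adjusted p = 0.0387). Pan3 changed by -0.49 ± 0.15 (adjusted p = 0.114). The z-score of Ddx6 changed by 0.20 ± 0.09 (adjusted p = 0.242), the other way.

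The rates behind the fits are given for Dcp1a and Pan2, the shortest-lived and longest-lived of the 10, and for Xrn1. They entered the fits, so they are not separate evidence for the half-lives. After 2 h, Dcp1a kept 42.7 ± 3.4% (SD, n = 3) of its 0 h conversion rate at E11.5, then 51.6 ± 9.3% and 41.5 ± 0.6% at the later stages. Pan2 kept 103 ± 7%, 100.2 ± 7.6% and 88.6 ± 16.2%, and Xrn1 80.1 ± 10.3%, 87.3 ± 14.3% and 72.0 ± 10.2%. Summed over all genes, 85.0 ± 2.5%, 88.5 ± 0.9% and 80.5 ± 1.8% remained. After 12 h between 8.30% (Xrn1, E16.5) and 26.9% (Patl1, E11.5) of the starting rate was left on the 10 mRNAs. For Xrn1 at E16.5 this was a rate of 0.155%, within the range of the background estimates, so it does not show that label remained. The Pan2 rate at 2 h was thus within its SD of the starting rate at all stages, and the lowest R2 of its exponential fits was 0.81.

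**Figure D4:**
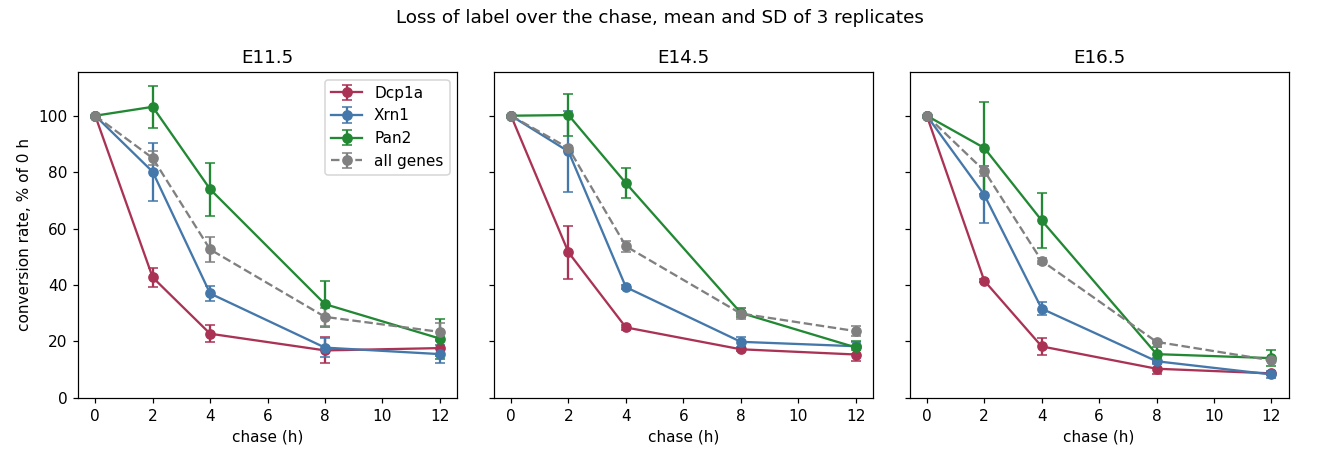
Conversion rate as a percentage of the rate at 0 h (y axis from 0) against hours of chase for Dcp1a, Xrn1, Pan2 and all genes summed, at the 3 stages, as mean and SD of 3 replicates. At 2 h Dcp1a is at 42.7, 51.6 and 41.5%, well below the 85.0, 88.5 and 80.5% of all genes, and Pan2 is above them.

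Levels were also followed in the wells of the later chase times. Within a stage, the wells of one letter came from one pool, so the change from 0 to 12 h was fitted without and with the pool as a block. Without the block, 1 of the 10 passed at E11.5 (18.5% of all genes), 0 at E14.5 (11.9%) and 3 at E16.5 (24.5%). With the paired pools, 3 passed at E11.5 (33.9%), 0 passed at the middle stage (20.8%) and 6 passed in E16.5 cells (35.8%). At E14.5, 1 of the 10, Dcp1a, had an unadjusted p under 0.05 in edgeR (0.0306) without the block, and DESeq2 passed 0 there. The share of all genes at that unadjusted cutoff is not given here.

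Xrn1 at E11.5 was at 66.7, 53.0 and 65.3 cpm at 0 h and at 73.4, 70.7 and 64.5 cpm at 12 h, a log2 change of 0.34 ± 0.08 on covered T counts (adjusted p = 0.0142, edgeR, and 0.00016 with the paired pools). It did not pass without replicate A (adjusted p = 0.0788), without replicate B (0.0762) or with the 8 h wells in place of the 12 h wells (0.073). In cpm the difference is smaller, and the 12 h libraries of E11.5 stand apart: Gm42418, the most abundant gene there, took 29686 to 67623 cpm, against 3862 to 9482 cpm at 0 h, and its part in the result was not tested. Patl1 (0.16, adjusted p = 0.028) and Pan3 (0.17, adjusted p = 0.0357) passed at E11.5 only with the paired pools, and their mean levels in cpm were not higher at 12 h: 78.7 cpm at 0 h and 77.6 cpm at 12 h for Patl1, and 35.3 and 34.998 cpm for Pan3.

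At E16.5 Dcp2 was at 65.8, 65.0 and 63.2 cpm at 0 h and at 73.2, 72.7 and 70.1 cpm at 12 h. The groups did not overlap, and the log2 change was 0.18 ± 0.04 (adjusted p = 0.00939, edgeR). Pan3 went the other way, from 45.5, 48.0 and 47.6 cpm to 37.3, 38.4 and 40.6 cpm, with a change of -0.25 ± 0.05 (adjusted p = 0.00647), and Ddx6 from 468, 479 and 446 cpm to 402, 425 and 407 cpm (-0.14 ± 0.04, adjusted p = 0.0257). Each of the 3 lost its call when some E16.5 replicate was left out: Dcp2 without A (adjusted p = 0.0731), B (0.0503) or C (0.0508), Ddx6 without A (0.214), B (0.0599) or C (0.0552), and Pan3 without A (0.0559). With the 8 h wells in place of the 12 h wells, Pan3 and Ddx6 each changed by -0.06 and did not pass (adjusted p = 0.663 and 0.386). Dcp2 did (0.21, adjusted p = 0.00718). With the paired pools Xrn1 (0.12, adjusted p = 0.0266), Patl1 (0.15, adjusted p = 0.0205) and Edc3 (-0.15, adjusted p = 0.0254) also passed at 12 h. In the 8 h wells without pairing, Xrn1 (0.32, adjusted p = 0.000852, edgeR) and Patl1 (0.22, adjusted p = 0.0239) passed, and Edc3 did not (-0.16, adjusted p = 0.0871).

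Whether the change over the chase differed between stages was tested in one edgeR fit of 18 libraries. None of the 10 passed, where 7.55% of 17224 genes did. An unadjusted p under 0.05 was reached by 3 (Dcp2, Xrn1 and Pan3), a cutoff for which the share of all genes is not given here. The lowest adjusted p-values were those of Xrn1 (0.0762) and Pan3 (0.0889). With the paired pools both passed (0.0266 and 0.0192), but the share of all genes that passed in that fit is not given here. Within single stages the pairing raised the share of all genes that passed, from 18.5 to 33.9% at E11.5 and from 24.5 to 35.8% at E16.5.

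**Figure D5:**
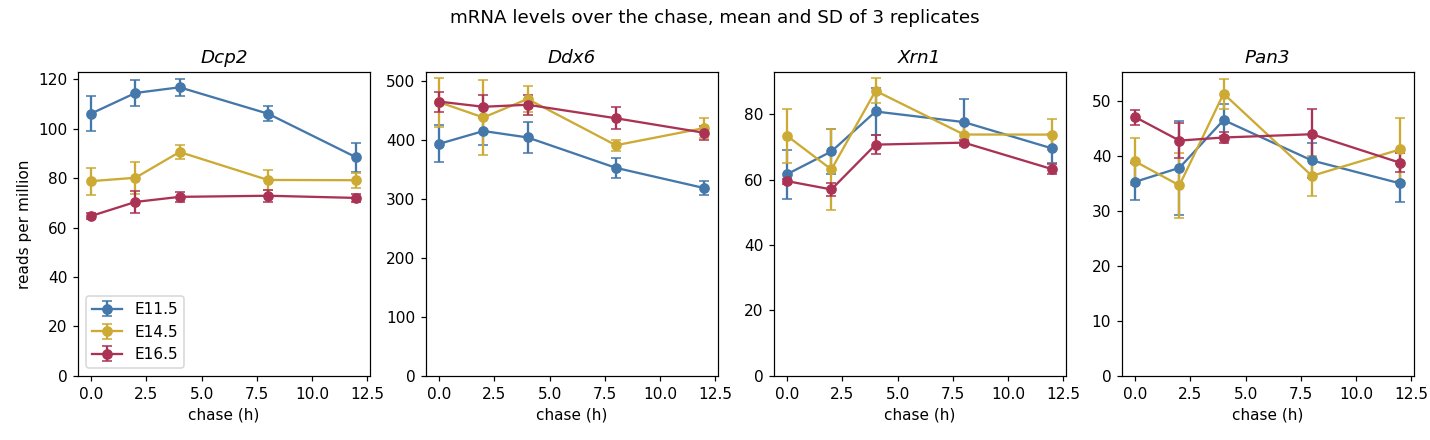
Reads per 1e6 reads (cpm, y axis from 0) of Dcp2, Ddx6, Xrn1 and Pan3 against hours of chase at the 3 stages, as mean and SD of 3 replicates. Xrn1 reaches 80.8 cpm at E11.5 and 87.1 cpm at E14.5 at 4 h, and the E16.5 line of Pan3 ends at 38.7 cpm, below its 47.1 cpm at 0 h.

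Over all 45 libraries, the genes whose log2(cpm + 1) ran most like that of Dcp2, among 11505 others with a mean of at least 5 cpm, were Ppp6r3 (Pearson's r = 0.96), Lrig1 (0.95) and Usp54 (0.95). For Xrn1 they were Fryl (0.88), Rbm41 (0.87) and Tmem245 (0.87). These values are a description, since the libraries share pools, stages and depth. Across the 45 libraries the highest cpm of each of the 10 was 1.55 (Edc4) to 2.10 (Pan2) times its lowest. The same ratio for all genes is not given here.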

How the data were processed

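Of the 9 tables, each holds 1 replicate of 1 stage at 5 chase times. The authors ran SlamDunk on mm10 with GENCODE vM24 exons, summed per gene; covered T counts and conversion rates (a fraction, printed as percent) were deposited, as were reads per 1e6 reads (CPM) and an unfiltered half-life. All CPM values were whole multiples of 1 read within 0.01 reads, so whole reads were recovered. Half-lives were refitted as exp(-kx), and 99.996% of 109733 fits lay within 1% of the deposited value. Kept were fits with over 500 covered Ts at each time, R2 over 0.6 and half-lives of 0 to 24 h in all 3 replicates.

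Covered T counts over 10 in every library were tested with edgeR 4.0.16 (TMM), and z-scored half-lives with limma 3.58.1, in R 4.3.3. DESeq2 1.42.0 was an alternative. A read adds several covered Ts, so these counts are not independent molecules. The tests were run on simulated data with independent counts and half-lives. That simulation held neither several covered Ts per read nor shared pools, so it cannot show how these affect the tests. Members, lists and tests were chosen with earlier results of these data known. Named genes were all members, list genes past 2-fold or otherwise the 2 largest rises and falls that passed, and the 3 genes most like Xrn1 and Dcp2. Wells of one letter within a stage come from one pool, and their deviations at 0 and 12 h correlated at 0.12 to 0.58. Letters do not pair stages. Of the gene symbols, 51678 (96.6%) matched GENCODE vM21. No unlabelled control was analysed here.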

Additional observations from a re-analysis of the deposited data

Results flagged for a closer look

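The change of Pan3 from 0 to 12 h of chase at E16.5, less that at E11.5, was -0.43 ± 0.13 (SE, log2 scale). It was taken from the edgeR fit of the 18 libraries of all 3 stages. This single contrast had an adjusted p of 0.0470 (edgeR, over 17224 genes), just under 0.05. The planned test, over all 3 stages together, gave Pan3 an adjusted p of 0.0889 (edgeR) and did not pass.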

How the results depend on the processing

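The counts of members that passed were recomputed under each alternative, and 222 of 252 stayed within 1.5 times the reported count. The rule is lenient for counts this small, since a move from 3 members to 2 lies within it. With the 12 h wells in place of the 0 h wells, 2 members rose from E11.5 to E16.5 (share of all genes not given here). From E14.5 to E16.5, 1 rose and 3 fell, where 8796 of 17615 genes passed in either direction in the same 12 h wells. There Xrn1 changed by -0.0733 between the first 2 stages and by -0.22 over both intervals, Edc4 by 0.0567 between the first 2 stages, and Edc3 by -0.0369 and Pan3 by -0.0640 between the last 2, each with the sign opposite to 0 h. Dcp1a, which did not pass in the first interval, changed by 0.0109 with no filter on low counts. In hours without scaling, 4 members differed among stages, 5 fell from E14.5 to E16.5 and 3 from E11.5 to E16.5, and Ddx6 changed by -0.44 h, against a positive z-score. The shares of all transcripts that passed in hours are not given here. Hours at E16.5 were shorter for many transcripts: all its replicates lay below all E14.5 replicates for 69.5% and below all E11.5 replicates for 51.5%. These counts are therefore not a result about the members alone. For E11.5 to E16.5, 1 member fell with R2 over 0.8 and 1 with log2 half-lives centred on the median. The shares of all transcripts in those fits are not given here either. Over the chase, the replicate block gave 3 members that rose at E11.5 (on scaled covered T counts, where 2 of them, Patl1 and Pan3, had no higher mean cpm at 12 h), 3 at E16.5 and 2 that differed between stages. With that block 33.9% of all genes passed at E11.5 and 35.8% at E16.5, in either direction. The share that differed between stages is not given here. The replicate block across stages, where letters do not pair embryos, took 1 call, that of Patl1 in the first interval (-0.19, adjusted p = 0.0686, edgeR), and left 0 members with a changed half-life. DESeq2 gave 3 that rose at E16.5. With the 8 h wells, added after the data were seen, 0 rose at E11.5, 3 rose at E16.5 and 0 fell there. The shares of all genes that passed in the DESeq2 and 8 h fits are not given here. Their counts are therefore not a result about the members alone. The causes were not tested.

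Leaving out each replicate in turn gave 1 to 3 members that rose and 2 to 4 that fell in the first interval. From E14.5 to E16.5 it gave 1 to 3 that rose and 3 to 6 that fell. For relative half-lives it gave 0 to 1 members that were shorter-lived at E16.5 than at E11.5. Over the chase it gave 0 to 1 that rose at E11.5, and at E16.5 0 to 1 that rose and 0 to 1 that fell. In the first interval Dcp1a ranged from -0.105 to 0.0516, and over both Xrn1 ranged from -0.0828 to 0.0485. Precision is limited by the 3 pools per stage.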
